A study of Mus musculus with 2 samples.

Results

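Solute carriers are the membrane proteins that move sugars, amino acids, ions, metals, nucleotides and other small molecules across the surface of a cell or across the membranes of its organelles. The genes described here are those with an Slc symbol followed by a digit that were listed for both tissues and had at least 100 UMIs over all cells, where a UMI marks 1 captured RNA molecule. Of 254 such symbols listed for both tissues, 215 met that minimum and 39 did not, among 16098 genes listed for both in all. The members were thus chosen by their summed UMIs, which are no result. Just inside the minimum stood Slc2a6 with 101 UMIs, Slc7a2 with 102, Slc2a4 with 106 and Slc3a1 with 115, and just outside it stood Slc1a7 with 99, Slc16a6 with 97, and Slc11a1 and Slc35g1 with 96 each. By function, 211 of the members encode carriers. The other 4 (Slc4a1ap, Slc7a6os, Slc9a3r1 and Slc9a3r2) bear the symbol of a carrier that they bind or neighbour.

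Carriers of the plasma membrane either exchange 1 solute for another or couple its entry to sodium, protons or chloride, whereas facilitative carriers such as the glucose transporters only follow the gradient. Several amino acid exchangers work as pairs, in which a light chain such as Slc7a5 or Slc7a11 moves the solute and the heavy chain Slc3a2 brings it to the surface. In the gut, carriers are best known from the absorptive epithelium. The stroma below it holds fibroblasts, smooth muscle and the blood and lymph vessels that carry absorbed nutrients away.

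The cells came from the colon and the small intestine of healthy, untreated mice, with 1 droplet single-cell library for each tissue. As the labels' protocols state, EDTA and DTT removed the epithelium, the colon was digested with collagenase and dispase for 60 min and the small intestine for 45 min, and live cells without CD45 and CD326 (EpCAM) were sorted. The strain, age, sex and number of the mice were not stated in the labels, and no transgene or other genetic change was named. The deposited cell labels gave 6 types with at least 50 cells in each tissue. These were CD81- fibroblasts (CD81- FBs), CD81+ trophocytes (fibroblasts named for support of the epithelial stem cells), PDGFRa-high subepithelial myofibroblasts (SEMFs), lymphatic endothelial cells (LECs), blood endothelial cells (BECs) and smooth muscle cells (SMCs). The capillary, arterial and venous endothelial labels of the colon were pooled as BECs.

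The colon library held 6018 labelled cells with a median of 6598 UMIs per cell, and the small intestinal library 9359 cells with a median of 5943. A total of 21 cell barcodes occurred in both libraries. Per type, the UMIs ranged from 269665 in 53 colon BECs to 24707386 in 3631 colon CD81- FBs, so the colon BEC values are the least precise. The members together took between 0.507% and 0.664% of the UMIs in every type of both tissues. Every LEC marker was highest in LECs in the colon (6 of 6) and 5 of 6 in the small intestine, and SMC markers were highest in SMCs in both tissues (6 of 6). BEC markers were highest in BECs for 7 of 7 in the colon and 5 of 7 in the small intestine. For trophocytes 6 of 7 and for SEMFs 7 of 8 markers were highest in the labelled type in both tissues. For CD81- FBs the count was 4 of 5 in the colon but 2 of 5 in the small intestine, where the SMC label carried 10372 summed CPM of these 5 markers against 9645 in CD81- FBs themselves. In the colon library 2700 cells had Xist but lacked Y-linked UMIs (the Xist set) and 1751 had the reverse, and the small intestinal matrix does not list Xist.

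Levels are given as CPM, a gene's UMIs per 1000000 UMIs of its type and tissue. The kit counts molecules by their 3' ends, so CPM does not grow with gene length. With 1 library per tissue there is no replicate error and no test between tissues, and every interval is a 95% interval for counting error only. A member was called specific to a type when its CPM there was at least 10, at least 2-fold that of the next highest type, and the interval of that ratio lay above 1. A tissue ratio was called past 2-fold when the colon and the small intestine together gave at least 20 UMIs in the type, the ratio was at least 2-fold either way, and its interval excluded 1. The cell labels rest on the expression of all genes, members included, so the levels by type are a description.

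Most solute carriers, like most genes, were not specific to 1 stromal type. The highest type was the same in both tissues for 88 of 215 members (40.9%), beside 45.4% of the 13985 genes with 100 or more UMIs. Specific to the same type in both tissues were 11 members (5.12%), beside 5.51% of all genes. These were 4 members for LECs, 4 for BECs, 2 for SMCs, 1 for SEMFs, and none for CD81- FBs or CD81+ trophocytes. The background for these types was 1.69% of all genes for LECs, 1.68% for BECs, 0.665% for SMCs, 0.837% for SEMFs, 0.0572% for CD81- FBs and 0.572% for trophocytes, so CD81- FBs had the fewest specific genes of any kind. In the colon 30 members were highest in CD81- FBs (background 9.57%), 35 in trophocytes (12.2%) and 30 in SEMFs (17.8%), while LECs were highest for 42 (20.3%), BECs for 46 (23%) and SMCs for 32 (17%). In the small intestine these counts were 19 (8.01%), 25 (8.59%), 62 (32.5%), 42 (20.2%), 40 (17.5%) and 27 (13.2%). Of the 88 with the same highest type, 7 were highest in CD81- FBs (2.76%), 11 in trophocytes (4.76%) and 20 in SEMFs (12%), while LECs led for 23 (10.6%), BECs for 19 (9.33%) and SMCs for 8 (5.98%). Within 1 tissue, 26 members were specific in the colon (background 10.9%) and 31 in the small intestine (background 11.6%). In at least 1 of the tissues 46 members were specific, which is 21.4% beside 16.6% of all genes. The median ratio of the highest to the next type was 1.24 in the colon and 1.25 in the small intestine for the members, and 1.25 and 1.21 for all genes.

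**Figure D1:**
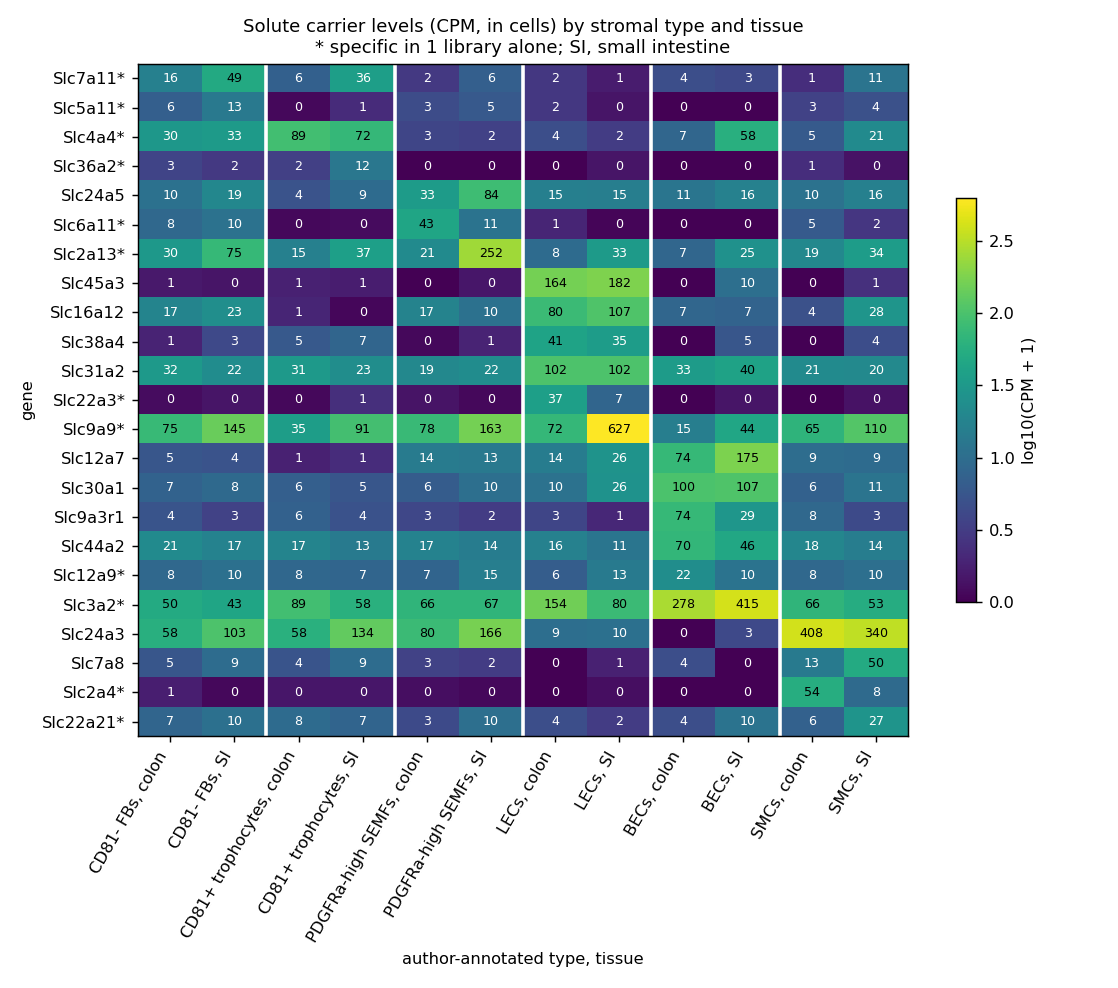
Levels of the 11 members specific in both tissues and of the strongest in 1 tissue alone (rows) in each cell type and tissue (columns), with the CPM printed in the cell and the colour showing log10(CPM + 1); SI stands for small intestine and a star marks a member specific in 1 tissue alone. Slc45a3 stands at 164 and 182 CPM in LECs and at no more than 9.58 CPM in any other column, and Slc24a3 at 408 and 340 CPM in SMCs.

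Lymphatic endothelium had the most type-restricted member, Slc45a3, a carrier of the sugar-transporting SLC45 family (chr1:131962967-131982969 of mm10, plus strand). It stood at 164 CPM in colon LECs and 182 CPM in small intestinal LECs. Every other type of the colon was at 0.785 CPM or below, where 0 UMIs in BECs allow up to 13.7 CPM, and in the small intestine only BECs, at 9.58 CPM, exceeded 1.43 CPM. LECs were thus 209-fold (88.0 to 652) above the next type in the colon and 19-fold (12.4 to 30.7) in the small intestine. The 6 LEC markers summed to 1081 CPM in small intestinal BECs and 66.7 CPM in colon BECs, beside 17706 and 22118 CPM in the LECs of these tissues, and Lyve1 and Mmrn1 were at 0 in colon BECs; their part in the BEC level of Slc45a3 and in the 2 ratios was not tested. The gene shares its strand with the overlapping gene Gm29103, so reads of the pair may have been split between them. UMIs of Slc45a3 were found in 114 of 217 colon LECs and in 1293 of 2498 small intestinal LECs.

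Slc16a12, a creatine carrier of the monocarboxylate transporter family (chr19:34668403-34747289, minus strand), was the second LEC member. Its level was 79.8 CPM in colon LECs and 107 CPM in small intestinal LECs. The next type was CD81- FBs at 17.1 CPM in the colon, a 4.67-fold difference (3.66 to 5.91), and SMCs at 28.2 CPM in the small intestine, a 3.79-fold difference (3.01 to 4.82). Trophocytes were almost without it, at 0.942 and 0.133 CPM. Slc38a4, a sodium-coupled carrier of neutral amino acids (chr15:96994820-97055956, minus strand), stood at 41.3 and 34.5 CPM in LECs of the colon and small intestine. Trophocytes came next with 5.03 and 7.25 CPM, 8.22-fold (5.09 to 13.4) and 4.76-fold (3.84 to 5.94) below. Slc31a2, a copper carrier of intracellular membranes (chr4:62262562-62298411, plus strand), was at 102 CPM in LECs of both tissues. It was also present in every other type, from 19.4 to 40.1 CPM, and LECs exceeded the next type, BECs, 3.07-fold (1.56 to 6.88) and 2.53-fold (2.04 to 3.18). Colon LECs carried 1723 summed CPM of 5 general fibroblast markers against 769 CPM in the small intestine; the part of these transcripts in the LEC values was not tested. The 4 LEC members stood at no more than 31.7 CPM in any fibroblast type, and Slc45a3 at no more than 0.785 CPM there.

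Blood endothelium had 3 carriers and 1 adaptor. Slc12a7, the potassium-chloride cotransporter KCC4 (chr13:73733094-73816754, plus strand), was at 74.2 CPM in colon BECs from 20 UMIs and at 175 CPM in small intestinal BECs. LECs came next in both tissues, at 14.1 and 26.3 CPM, and the ratios were 5.27 (2.56 to 11.1) and 6.65 (5.70 to 7.77). Slc30a1, the zinc exporter of the cell surface (chr1:191906767-191913247, plus strand), was at 100.1 CPM in colon BECs from 27 UMIs and reached 107 CPM in small intestinal ones, again with LECs next at 10.3 and 25.7 CPM. In the small intestine both carriers were thus highest in the vessels, blood before lymph. Slc44a2, a choline transporter-like protein (chr9:21320698-21355028, plus strand), was at 70.5 and 46.1 CPM in BECs and between 11.3 and 21.0 CPM in all other types. Slc9a3r1, which encodes the scaffold NHERF1 and no carrier (chr11:115163341-115181181, plus strand), was at 74.2 CPM in colon BECs and 28.7 CPM in small intestinal BECs, with no other type above 7.77 CPM. The related scaffold Slc9a3r2 differed from it in also being high in LECs: it stood at 616 and 344 CPM in BECs and at 417 and 408 CPM in LECs, and from 19 to 105 CPM elsewhere. The 4 BEC members rested on 19 to 27 UMIs each in the colon, where BECs also carried 3994 summed CPM of the 5 general fibroblast markers against 383 CPM in the small intestine. The BEC members stood at 0.785 to 21.0 CPM in the colon fibroblast types, and the part of fibroblast transcripts in the colon BEC values was not tested.

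Of the sodium/calcium/potassium exchangers, Slc24a3 was highest in smooth muscle and Slc24a5 in myofibroblasts, though both types held more Slc24a3 than Slc24a5. Such exchangers of the SLC24 family export calcium in return for sodium, using the potassium gradient as well. Slc24a3 (chr2:145167754-145642166, plus strand) was at 408 CPM in colon SMCs and 340 CPM in small intestinal SMCs. SEMFs came next at 80.1 and 166 CPM, 5.09-fold (4.43 to 5.84) and 2.05-fold (1.88 to 2.24) below, so the small intestinal value sits just past the limit of 2. Colon BECs had no UMI of it, an upper limit of 13.7 CPM, and small intestinal BECs had 3.19 CPM. Slc24a5, best known from the pigment organelle of melanocytes (chr2:125068124-125088677, plus strand), was instead highest in SEMFs, with 33.3 CPM for the colon and 83.6 CPM for the small intestine. The next type was at 15 CPM (colon LECs) and 18.5 CPM (small intestinal CD81- FBs), and the ratios were 2.22 (1.34 to 3.95) and 4.52 (3.95 to 5.16). The colon call for Slc24a5 did not hold in the smaller cell sets: the log2 ratio to the next type was -0.02 among cells that had Y-linked UMIs but lacked Xist and 0.44 among those of the reverse kind. Slc24a5 overlaps Myef2 on the other strand, and whether counting used the strand is not given in the sources used here, so reads of the pair may not be told apart.

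Slc7a8, a light chain for large neutral amino acids (chr14:54722209-54781946, minus strand), was the second SMC member. It stood at 12.9 CPM in colon SMCs from 10 UMIs and at 50.2 CPM in small intestinal SMCs. The next types were at 4.57 and 8.85 CPM, so the ratios were 2.83 (1.32 to 5.40) and 5.68 (4.45 to 7.25). The small intestinal SMC label carried 13649 summed CPM of general fibroblast markers, where the colon SMC label carried 5937 CPM; the part of this in the SMC values was not tested, and Slc7a8 itself was at no more than 8.85 CPM in small intestinal fibroblasts.

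The others of the 46 were specific in 1 tissue alone, and for each type the strongest of them is given here. In LECs of the colon this was Slc22a3, the organic cation transporter OCT3, at 36.6 CPM against 0.403 CPM in SEMFs. Small intestinal LECs were also highest for it, at 7.23 CPM against 1.40, but below the minimum of 10 CPM. Slc9a9, a sodium/proton exchanger of endosomes, was the LEC member of the small intestine, at 627 CPM against 163 CPM in SEMFs. In the colon Slc9a9 was not a LEC gene: LECs were at 72.3 CPM, between CD81- FBs at 74.9 CPM and SMCs at 64.7 CPM. In BECs of the small intestine it was Slc3a2, the heavy chain of the amino acid exchangers, at 415 CPM against 79.9 CPM in LECs. Colon BECs were highest for Slc3a2 as well, at 278 CPM (219 to 349), but only 1.81-fold (1.36 to 2.39) above LECs. The colon BEC member was Slc12a9, an orphan of the chloride cotransporter family, at 22.2 CPM from 6 UMIs.

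Slc2a4, the insulin-responsive glucose transporter GLUT4 of muscle and fat, was the SMC member of the colon. It stood at 54.4 CPM in colon SMCs against 0.729 CPM in the next type, with UMIs in 34 of 125 cells. In small intestinal SMCs it was at 8.20 CPM, 17.6-fold (7.31 to 48.6) above the next type but under the minimum of 10 CPM. The SMC member of the small intestine was the carnitine carrier Slc22a21, at 27.1 CPM against 10.5 CPM in BECs. In SEMFs the strongest were Slc6a11, the GABA transporter GAT3, in the colon and Slc2a13, a proton-coupled myo-inositol carrier, in the small intestine. Slc6a11 was at 43.2 CPM in colon SEMFs against 7.81 CPM in CD81- FBs, and both were near 10 CPM in the small intestine (10.6 and 10.2 CPM). Slc2a13 was at 252 CPM in small intestinal SEMFs against 74.6 CPM in CD81- FBs, whereas in the colon CD81- FBs were highest with 30.4 CPM and SEMFs at 20.8 CPM. Markers of other cells differed along with these values. The 5 pericyte markers summed to 154 CPM in colon and 1241 CPM in small intestinal SEMFs, to 63.0 and 824 CPM in CD81- FBs, and to 619 and 1273 CPM in SMCs. Leukocyte markers summed to 21.2 and 457 CPM in SEMFs. Their part in the values of these types, tissue ratios included, was not tested.

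No member was specific to CD81- FBs or to trophocytes in both tissues, beside 0.0572% and 0.572% of all genes. These types were not compared with each other alone. The strongest members specific in 1 tissue alone follow. In CD81- FBs of the colon the strongest was Slc7a11, the cystine/glutamate exchanger xCT, at 15.7 CPM against 6.28 CPM in trophocytes. In the small intestine it was again highest in CD81- FBs, at 48.8 CPM, but trophocytes were close with 36.5 CPM. The small intestinal member was Slc5a11, a sodium-coupled inositol carrier, at 12.7 CPM against 5.06 CPM in SEMFs. In trophocytes of the colon it was Slc4a4, a sodium bicarbonate cotransporter, at 89.2 CPM against 29.6 CPM in CD81- FBs. Small intestinal trophocytes had 71.5 CPM of Slc4a4, but BECs there reached 57.9 CPM (48.3 to 68.9), compared with 7.42 CPM (0.898 to 26.8) in colon BECs. The trophocyte member of the small intestine was Slc36a2, a proton-coupled carrier of small amino acids, at 11.8 CPM against 1.89 CPM, with UMIs in 151 of 1913 cells.

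Pooling the 3 fibroblast labels into 1 class, a step chosen after seeing the data, raised the number of members specific in both tissues to 14 (background 6.43%). Slc24a5 was lost, and the members gained were Slc1a3 for fibroblasts, Slc16a9 for LECs, and Slc6a6 and Slc16a1 for BECs. Slc1a3, the glutamate carrier GLAST, stood at 11.6 and 26.6 CPM in pooled fibroblasts of the colon and small intestine. The next class was LECs in the colon, at 0.939 CPM from 1 UMI (ratio 12.3, 2.20 to 487), and SMCs in the small intestine, at 8.55 CPM. Colon BECs had no UMI of Slc1a3, which allows up to 13.7 CPM, above the level of the pooled colon fibroblasts. Slc6a6, the taurine carrier, was at 404 and 196 CPM in BECs. SEMFs came next with 273 and 54.4 CPM, so within the fibroblasts it was mainly a SEMF transcript.

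Between the tissues, the members differed past 2-fold about as often as other genes. In CD81- FBs 38 of 211 members with enough UMIs were past 2-fold (18%, background 19.3%), 23 of them higher in the colon (background 7.97%) and 15 higher in the small intestine (background 11.4%). The count was 38 of 201 in trophocytes (background 16.1%), 49 of 196 in SEMFs (background 23.8%), 26 of 177 in LECs (background 17.5%), 16 of 124 in BECs (background 15.8%) and 36 of 158 in SMCs (background 20.9%). Higher in the colon were 16 of those in trophocytes (background 7.28%), 16 in SEMFs (7.67%), 11 LEC members (5.67%), 5 BEC members (5.21%) and 11 SMC members (4.48%). Higher in the small intestine were 22 (background 8.8%), 33 (16.1%), 15 (11.8%), 11 (10.6%) and 25 (16.4%). The genes as a whole leaned to the small intestine. For CD81- FBs their median log2 ratio was -0.21, where that of the members was -0.11, and -0.09 against -0.07 in trophocytes. For SEMFs the medians were -0.31 for all genes and -0.35 for members, for LECs -0.21 and -0.15, for BECs -0.18 and -0.42, and for SMCs -0.30 and -0.27. Relative to the median gene of each type, in the same order, the split between the colon and the small intestine was 27 to 7, 24 to 16, 24 to 14, 16 to 11, 8 to 6 and 16 to 14, so a count of carriers higher in 1 tissue depends on that centring. The vascular splits also depended on the cells used. In BECs 5 to 11 became 7 to 4 with the Xist set of colon cells, 7 to 7 without the 5% of cells with the most UMIs, and 1 to 11 with each cell weighted equally. In LECs 11 to 15 became 6 to 25 when, for each gene, the cell with its most UMIs was left out. In at least 1 type 115 members (53.5%) were past 2-fold, beside 49.2% of all genes.

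In all 3 fibroblast types at once, 6 of 188 members were higher in the colon (3.19%, background 2.09%) and 5 were higher in the small intestine (2.66%, background 3.31%). Higher in the colon were the taurine carrier Slc6a6, the light chain Slc7a5 for large neutral amino acids, the glucose transporter Slc2a1 (GLUT1), the lactate exporter Slc16a3 (MCT4), Slc10a1, known as the bile acid importer of the liver, and Slc35e4, whose substrate is not known. Higher in the small intestine were the cystine/glutamate exchanger Slc7a11, the steroid sulfate carrier Slc10a6, the inositol carrier Slc2a13, Slc16a9 of the monocarboxylate transporter family and Slc35a3, which brings UDP-N-acetylglucosamine into the Golgi.

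**Figure D2:**
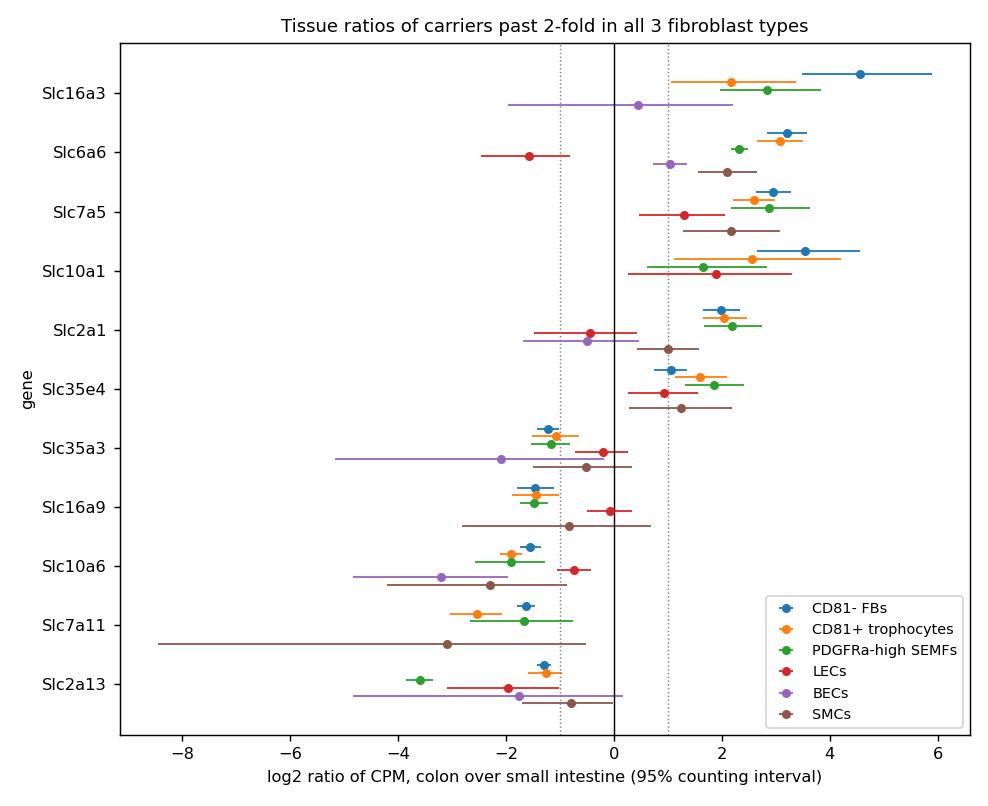
Log2 ratio of CPM, colon over small intestine, for the 11 members past 2-fold in all 3 fibroblast types, with 95% counting intervals and 1 colour per cell type; dotted lines mark 2-fold, and types with under 20 UMIs or none in 1 tissue are not drawn. The genes were chosen so that the fibroblast types lie on 1 side, and LECs lie on the other side for Slc6a6 at -1.58.

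Slc6a6 was the carrier with the most UMIs among the 6 higher in the colon. In the colon it stood at 31.1 CPM in CD81- FBs, 33 CPM in trophocytes and 273 CPM in SEMFs, and in the small intestine at 3.37, 3.93 and 54.4 CPM. The log2 ratios of colon to small intestine were 3.20 (2.84 to 3.58), 3.07 (2.65 to 3.51) and 2.33 (2.16 to 2.49). Every fibroblast type of the colon thus exceeded its counterpart, and SMCs did so too, at 84.2 CPM against 19.6 CPM. LECs went the other way, with 39.3 CPM in the small intestine against 13.1 CPM in the colon, which gave -1.58 (-2.46 to -0.82).

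Slc7a5 stood at 34, 30.5 and 21.3 CPM in CD81- FBs, trophocytes and SEMFs of the colon and at 4.42, 5.06 and 2.91 CPM in the small intestine. Its log2 ratios were 2.94, 2.59 and 2.87, and it was higher in the colon in LECs (1.30) and SMCs (2.17) as well. Its heavy chain Slc3a2 was past 2-fold in none of these types. In the colon fibroblast types it was at 50.2, 89.1 and 66 CPM, against 42.6, 58.3 and 66.5 CPM in the small intestine. The log2 ratios were 0.24, 0.61 and -0.01. In LECs Slc3a2 was also higher in the colon, at 154 CPM against 79.9 CPM (0.95, 0.70 to 1.19). Its SMC interval included 0 (0.32, -0.16 to 0.79). Slc7a11, another light chain that pairs with Slc3a2, differed in the opposite direction to Slc7a5. It was at 15.7, 6.28 and 1.88 CPM in the colon and 48.8, 36.5 and 5.98 CPM in the small intestine, with log2 ratios of -1.63 (-1.80 to -1.46), -2.54 (-3.04 to -2.07) and -1.67 (-2.66 to -0.75). The SEMF value was -0.97 in colon cells with Y-linked UMIs and without Xist, so it was not past 2-fold there. In LECs and BECs Slc7a11 was at no more than 3.71 CPM in either tissue.

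Slc2a1 stood at 17.1, 22.3 and 25.8 CPM in the 3 colon fibroblast types and at 4.32, 5.39 and 5.67 CPM in the small intestine, with log2 ratios of 1.98, 2.05 and 2.19. In LECs and BECs the intervals of its ratio included 0, at -0.45 (-1.48 to 0.43) and -0.51 (-1.68 to 0.47). Slc16a3 was lower in level but further apart: 8.18, 3.30 and 13.2 CPM in the colon and 0.347, 0.732 and 1.84 CPM in the small intestine, which gave log2 ratios of 4.56 (3.49 to 5.89), 2.17 (1.05 to 3.37) and 2.84 (1.97 to 3.84). Slc16a1 (MCT1), the partner known for lactate uptake, was not past 2-fold in any fibroblast type, with log2 ratios of 0.60, 0.96 and -0.93. Slc10a1 was at 6.31, 2.36 and 4.84 CPM in the colon and 0.546, 0.399 and 1.53 CPM in the small intestine, and it was past 2-fold on few UMIs (6 to 156 in these types). Its SEMF ratio of 1.66 was 0.99 in colon cells with Xist alone. Slc35e4 was at 12.6, 13.4 and 20.4 CPM in the colon against 6.10, 4.39 and 5.67 CPM, and its ratio in CD81- FBs was 1.05, or 0.96 in colon cells with Y-linked UMIs alone.

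Slc10a6 had the most UMIs of the 5 higher in the small intestine. It stood at 12.3, 35 and 3.77 CPM in CD81- FBs, trophocytes and SEMFs of the colon and at 35.9, 131 and 14.1 CPM in the small intestine. The same direction was seen in BECs, with 18.5 CPM from 5 UMIs against 171 CPM (log2 ratio -3.21, -4.84 to -1.97), and in SMCs (-2.29). Slc2a13 was at 30.4, 15.4 and 20.8 CPM in the colon and 74.6, 37.0 and 252 CPM in the small intestine, so its tissue difference was largest in SEMFs (-3.60, -3.85 to -3.36). Slc16a9 gave log2 ratios of -1.46, -1.44 and -1.48, close to each other, while LECs carried about the same level in both tissues (50.7 and 53.1 CPM, ratio -0.07, -0.50 to 0.34). Slc35a3 was at 11.5, 8.64 and 13.5 CPM in the colon and 26.9, 18.2 and 30.2 CPM in the small intestine, and it shares its strand with the overlapping Gm43191. The trophocyte difference of Slc35a3 was -1.07 in all cells but -0.65, no longer past 2-fold, in colon cells with Xist and no Y-linked UMIs.

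Because these members differed in 1 direction in 3 cell types, their promoter windows are shown for the 3 with a match to a motif of a known nutrient or oxygen response. The windows run from 250 bases before to 50 bases after the RefSeq gene start in GRCm38.p6 and were found for 166 of 215 members, 4 of the 6 higher in the colon and 5 of the 5 higher in the small intestine. Slc6a6 and Slc7a5 had no window. Searched on both strands were ACGTG, the core of the hypoxia response element, TGATGNAA, the core of the amino acid response element, and TGGAAA, the core bound by NFAT factors. Capitals mark ACGTG in the first pair of windows and TGATGNAA, read on either strand, in the third. Slc16a3 lies at chr11:120948817-120949116 (plus strand), Slc2a1 at chr4:119108495-119108794 (plus strand) and Slc7a11 at chr3:50443564-50443863 (minus strand).
Slc16a3: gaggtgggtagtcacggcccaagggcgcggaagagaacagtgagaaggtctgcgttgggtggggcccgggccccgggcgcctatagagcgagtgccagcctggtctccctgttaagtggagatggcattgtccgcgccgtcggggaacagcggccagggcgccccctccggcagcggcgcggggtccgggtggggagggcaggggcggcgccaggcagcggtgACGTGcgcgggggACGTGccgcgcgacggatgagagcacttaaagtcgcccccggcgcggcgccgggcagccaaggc
Slc2a1: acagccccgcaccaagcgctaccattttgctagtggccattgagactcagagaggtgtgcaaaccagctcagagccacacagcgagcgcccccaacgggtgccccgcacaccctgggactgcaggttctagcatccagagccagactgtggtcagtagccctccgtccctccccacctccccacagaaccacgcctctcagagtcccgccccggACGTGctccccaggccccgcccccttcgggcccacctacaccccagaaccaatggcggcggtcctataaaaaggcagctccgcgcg
Slc7a11: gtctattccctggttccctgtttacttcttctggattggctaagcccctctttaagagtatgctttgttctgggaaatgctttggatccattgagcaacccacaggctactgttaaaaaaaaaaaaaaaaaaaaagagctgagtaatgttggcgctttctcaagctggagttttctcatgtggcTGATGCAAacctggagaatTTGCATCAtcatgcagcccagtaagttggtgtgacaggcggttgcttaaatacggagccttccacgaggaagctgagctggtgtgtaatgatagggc

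ACGTG occurred in 2 of the 4 colon-higher windows, with 2 matches for Slc16a3 and 1 for Slc2a1, and in 0 of the 5 small intestine-higher windows. It is common: 19.7% of 27025 windows of all genes and 28.9% of the 166 windows of members held it. TGATGNAA occurred in 1 of the 5 small intestine-higher windows, that of Slc7a11, which held it on both strands, and in 4.06% of all windows and 4.22% of those of members. TGGAAA was found for Slc10a6 and Slc16a9, in 21.5% of all windows and in 14.5% of those of members. A match is a description of these letters and not of a bound site.

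Amino acid carriers, 31 members, were among the lists with the most tissue differences: 25 (80.6%) were past 2-fold in at least 1 type, beside 49.2% of all genes, and 10 (32.3%) were specific to a type in at least 1 tissue, beside 16.6%. In SEMFs 4 of 27 with enough UMIs were higher in the colon (7.67% of all genes) and 8 in the small intestine (16.1%). In SMCs these counts were 2 and 8 of 23 (4.48% and 16.4% of all genes). Slc38a2, a sodium-coupled neutral amino acid carrier and the amino acid carrier with the most UMIs, was among those higher in colon SEMFs, at 326 CPM against 138 CPM (log2 ratio 1.24). Colon LECs had 340 CPM of it and small intestinal LECs 417 CPM. Slc43a3, placed with its amino acid family but known as a carrier of purine bases, was at 123 CPM in colon and 282 CPM in small intestinal CD81- FBs (log2 ratio -1.19). It was also lower in the colon in SEMFs (-1.29) and in SMCs (25.9 CPM against 143 CPM, -2.46), but not past 2-fold in trophocytes, LECs or BECs. Slc43a1, a facilitative carrier of large neutral amino acids, was at 9.82 CPM in SEMFs of the colon against 41.5 CPM in their counterpart (-2.08). The colon SEMFs had the more Slc6a11, as given above, with a log2 ratio of 2.03 (1.65 to 2.43).

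**Figure D3:**
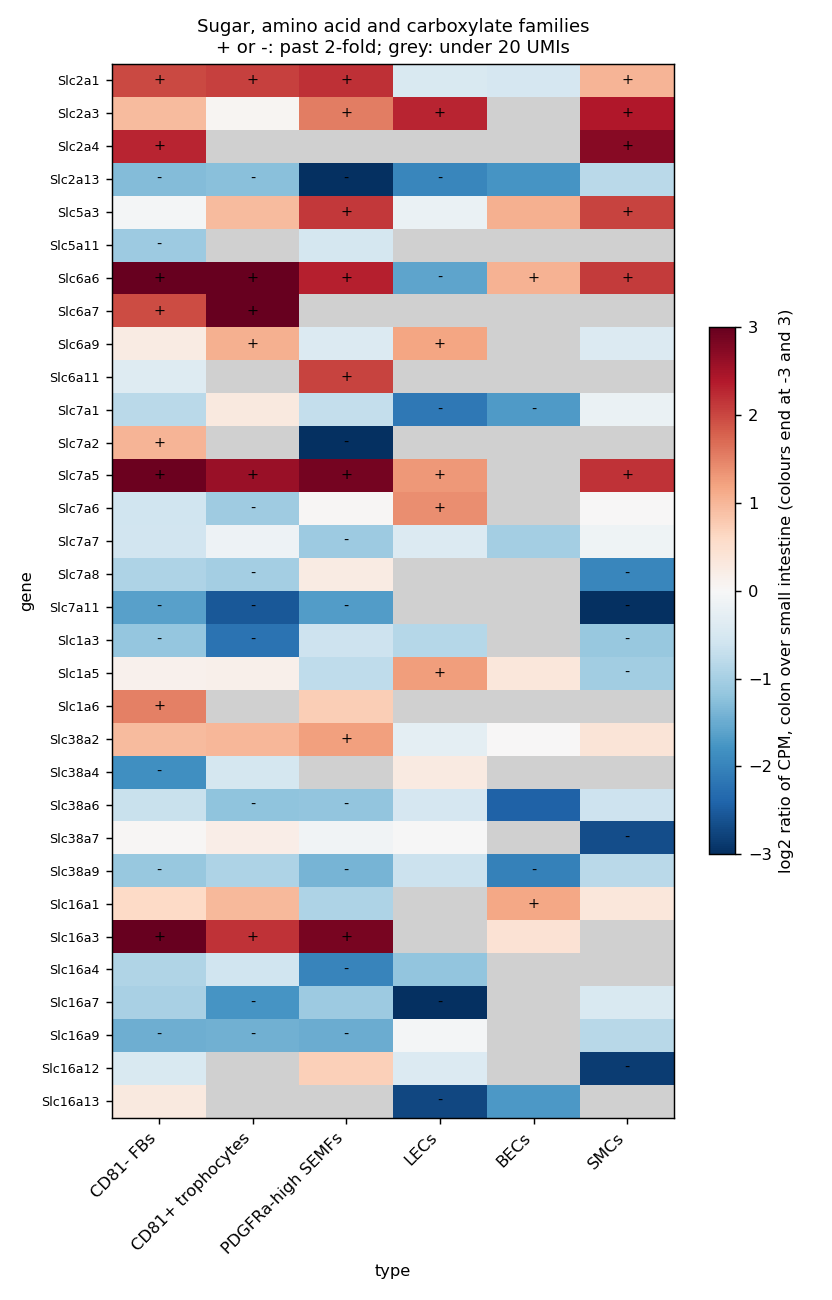
Log2 ratio of CPM, colon over small intestine, for members of 7 glucose, inositol, amino acid and monocarboxylate carrier families past 2-fold in at least 1 type (rows) in each cell type (columns). The families are Slc1a, Slc2a, Slc5a, Slc6a, Slc7a, Slc16a and Slc38a, and other amino acid carriers, such as Slc43a3, are not drawn. Red is higher in the colon, blue higher in the small intestine, + or - marks a ratio past 2-fold and grey marks under 20 UMIs. Slc2a1, Slc6a6, Slc7a5 and Slc16a3 are red across the 3 fibroblast columns, and Slc2a13, Slc7a11 and Slc16a9 are blue.

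The sugar and polyol list held 16 members, of which 7 (43.8%) were past 2-fold in at least 1 type, near the background. Of the 8 with enough UMIs in SMCs, 4 were higher in the colon and 0 in the small intestine, where the shares of all genes were 4.48% and 16.4%. These 4 were Slc2a1 (53.1 CPM against 26.4 CPM), Slc2a3, the high-affinity glucose transporter GLUT3 (16.8 CPM against 3.21 CPM), Slc2a4 (54.4 CPM against 8.20 CPM) and the inositol carrier Slc5a3 (33.7 CPM against 8.20 CPM). The colon SMC values rest on 13 to 42 UMIs each, and the small intestinal SMC label carried the fibroblast markers noted above, whose part in these ratios was not tested. Small intestinal fibroblasts themselves had 4.32 to 5.67 CPM of Slc2a1 and no more than 0.466 CPM of Slc2a4. In LECs, Slc45a4 of the same family as Slc45a3 reached 64.8 CPM for the colon against 17.5 CPM for the small intestine (log2 ratio 1.89, 1.47 to 2.29).

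Of 9 carboxylate carriers, 5 (55.6%, beside 16.6% of all genes) were specific to a type in at least 1 tissue. Past 2-fold in at least 1 type were 7 (77.8%, beside 49.2%). Slc16a7 (MCT2) had the widest LEC difference of this list. It was at 1.88 CPM in colon LECs from 2 UMIs and at 43.5 CPM in small intestinal LECs, a log2 ratio of -4.53 (-7.58 to -2.67). SMCs carried Slc16a7 in both tissues, at 60.9 and 83.4 CPM. Slc16a10, a carrier of aromatic amino acids, was past 2-fold in no type. It was highest in trophocytes of both tissues, at 73.3 and 38.6 CPM.

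Among 19 carriers of acid, bicarbonate and chloride, 8 (42.1%, beside 16.6% of all genes) were specific to a type in at least 1 tissue. Past 2-fold in at least 1 type were 10 (52.6%), near the 49.2% of all genes. The sodium-potassium-chloride cotransporter Slc12a2 (NKCC1) was the SMC carrier with the widest difference between tissues on the scale with 10 CPM added. It stood at 379 CPM in colon SMCs and 51.3 CPM in small intestinal SMCs, a log2 ratio of 2.89 (2.59 to 3.18). In the colon SMCs exceeded the next type, SEMFs at 69.4 CPM, 5.47-fold (4.72 to 6.32), whereas in the small intestine SEMFs at 53.7 CPM and SMCs did not differ beyond counting error. In CD81- FBs (1.10) and trophocytes (1.30) Slc12a2 was also higher in the colon. Slc9a9 went the other way in LECs, with 627 CPM in the small intestine against 72.3 CPM (-3.12, -3.46 to -2.79).

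The 11 carriers of calcium, phosphate and magnesium included 9 (81.8%, beside 49.2% of all genes) past 2-fold in at least 1 type. Specific to a type were 2 (18.2%, near the 16.6% of all genes), the exchangers Slc24a3 and Slc24a5 described above. Slc8a1, the sodium/calcium exchanger NCX1 of excitable cells, had the most UMIs. SEMFs and SMCs were high in both tissues, at 441 and 409 CPM in the colon and 526 and 340 CPM in the small intestine. The vessels differed: colon LECs had 153 CPM against 37.8 CPM (2.02, 1.75 to 2.28), and colon BECs 37.1 CPM against 178 CPM (-2.27, -3.34 to -1.37). The colon BEC value rests on 10 UMIs.

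Of 22 carriers of metals and haem, 2 (9.09%, beside 16.6% of all genes) were specific to a type. Past 2-fold in at least 1 type were 11 (50%), near the 49.2% of all genes. The iron exporter Slc40a1 (ferroportin) was at 52.3 and 62.3 CPM in CD81- FBs and 58.9 and 49.8 CPM in SEMFs of the colon and small intestine. Trophocytes had less, at 20.1 and 13.8 CPM, and BECs had 0 UMIs in the colon, which allow up to 13.7 CPM, and 1.82 CPM in the small intestine. Slc40a1 was past 2-fold between the tissues in no type. The haem carrier Slc48a1 was at 66.7 CPM in colon BECs from 18 UMIs and 24.2 CPM in small intestinal BECs (1.47, 0.61 to 2.26, but 0.54 in colon cells with Y-linked UMIs alone), and at 73.8 and 34.2 CPM in SMCs (1.11). The zinc importer Slc39a1 was past 2-fold in SMCs alone, at 44 CPM against 111 CPM (-1.34), and Slc39a7, which releases zinc from the endoplasmic reticulum, in none.

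The organic ion list of 13 members had 9 (69.2%) past 2-fold in at least 1 type, beside 49.2% of all genes. The list of 17 carriers of nucleosides, vitamins and cofactors had 7 (41.2%). Slc10a7, an orphan of the bile acid carrier family, was lower in colon CD81- FBs (31.2 against 64.9 CPM, -1.06) and trophocytes (26.5 against 63.5 CPM, -1.26). Slc44a1, a choline carrier, had the most UMIs of the latter list and ranged from 72.5 to 198 CPM in the colon and 82.9 to 218 CPM in the small intestine. The nucleoside carrier Slc29a1 was highest in trophocytes of both tissues, at 140 and 141 CPM, and differed in SEMFs (25.6 CPM against 64.1 CPM, -1.33). Of 6 carriers of vesicles, lysosomes and peptides 2 (33.3%, beside 49.2% of all genes) were past 2-fold. These included the peptide carrier Slc15a2, at 76.2 CPM in small intestinal BECs and 7.42 CPM in colon BECs from 2 UMIs (-3.36, -6.42 to -1.49). In colon cells with Y-linked UMIs alone, the BEC ratio of Slc15a2 was at most -0.53. That value is a bound with 3 counts standing in for absent UMIs, so it does not show a smaller difference. In LECs Slc15a2 was at 30.8 CPM in the small intestine against 3.75 CPM in the colon (-3.04). Of the 3 fatty acid carriers, Slc27a1 was past 2-fold in trophocytes (-1.44) and Slc27a3 in SEMFs (-1.17).

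**Figure D4:**
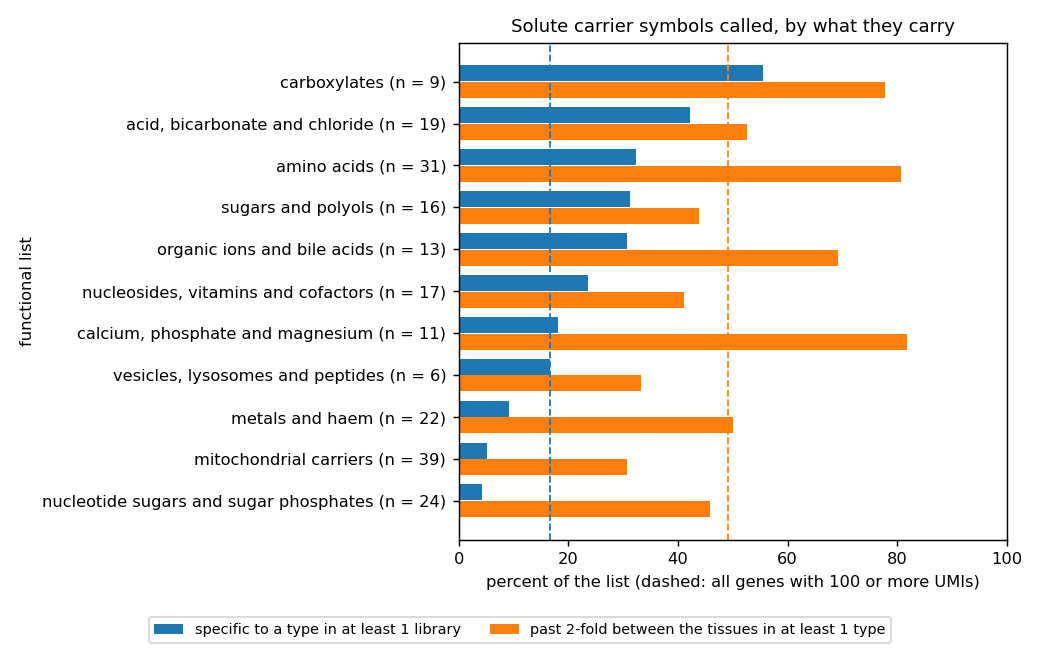
Percent of each functional list that was specific to a type in at least 1 tissue (blue) and past 2-fold between the tissues in at least 1 type (orange), with dashed lines for all genes at 16.6% and 49.2% and the number of members in brackets. Mitochondrial carriers stand below both lines, at 5.13% and 30.8%.

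Carriers of mitochondria and of the secretory pathway were seldom specific to a type. Of 39 mitochondrial carriers 2 (5.13%) were specific to a type in 1 tissue, none in both, beside 16.6% of all genes in at least 1 tissue. Past 2-fold in at least 1 type were 12 (30.8%, beside 49.2%). The adenine nucleotide exchanger Slc25a4 ranged from 304 to 589 CPM in the colon and 188 to 446 CPM in the small intestine, and SEMFs were highest in both. The phosphate carrier Slc25a3 ranged from 199 to 286 CPM in the colon and 234 to 299 CPM in the small intestine, and Slc25a5, the second adenine nucleotide exchanger, from 99.1 to 208 and 86.2 to 154 CPM. None of the 3 was past 2-fold in any type. The pyrimidine nucleotide carrier Slc25a36 was an exception in SMCs, with 14.2 CPM from 11 UMIs for the colon against 57.0 CPM (-2.0, -3.03 to -1.12), and the peroxisomal carrier Slc25a17 was higher in colon SMCs (1.23). Of 24 nucleotide sugar carriers and their relatives 1 (4.17%), Slc35a3, was specific, and 11 (45.8%) were past 2-fold, the latter near the 49.2% of all genes. The best detected of them, Slc35b1, Slc35f5, Slc35b2 and Slc35a1, were past 2-fold in no type.

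Carriers of the absorptive epithelium were near absent. Of 16 such carriers 4 were listed in both tissues and 2 were members, and 11 were listed in neither, among them the glucose carrier Slc5a1 and the peptide carrier Slc15a1. Those listed summed to between 2.31 and 5.02 CPM in every type except colon BECs, where 6 UMIs gave 22.2 CPM. Of these UMIs, 5 were of Slc28a2 (18.5 CPM), which was highest in BECs in the small intestine too, at 2.74 CPM from 6 UMIs. The 3 macrophage carriers, 2 of them members, summed to 1.43 to 19.3 CPM. Of 3 erythroid carriers Slc4a1, the band 3 protein of red cells, was listed in neither tissue, and the mitochondrial carriers Slc25a37 and Slc25a39 summed to 37.1 to 68.5 CPM in every type. Of 23 other transport genes without the Slc prefix 20 were listed in both tissues. Of these, 12 had the same highest type in both, beside 45.4% of all genes. Specific in both were 2, beside 5.51% of all genes. They were the prostaglandin carrier Slco2a1 in BECs (460 and 1071 CPM, with LECs next at 5.63 and 20.1 CPM) and the mitochondrial carrier Ucp2 in LECs (222 and 289 CPM, with SEMFs next at 55.0 and 115 CPM). Past 2-fold between the tissues in at least 1 type were 15 of the 20, beside 49.2% of all genes.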

How the data were processed

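Per the submitters' processing notes, Cell Ranger 7.1.0, Seurat 4 and the mm10 genome were used; the filters on cells and genes and the method of naming cells are not given in the sources used here. The authors deposited, per tissue, a matrix of UMI counts, the source of all values printed here, and one of natural log values. Checked over all cells, the deposited natural log value equalled ln(1 + UMIs × 10000 / UMIs of the cell). Cell labels came from a further deposited table. UMI counts were summed per tissue and label and divided by all UMIs of the label. Intervals are exact Poisson for a level and exact conditional binomial for a ratio (95%), computed with Python 3.11.15, numpy 2.4.6, pandas 2.3.3 and scipy 1.17.1; they cover counting error only, and reads that share a UMI count once. Where 1 tissue had 0 UMIs, 3 counts stood in for it and the ratio is given as a bound. The counting interval can reach past such a bound. The calls were tested on simulated data drawn with counting error alone, as the intervals assume. That test does not cover variation between cells, animals or libraries. There are no replicates.

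The members, the functional lists and the rules were chosen with earlier results of these data known. Text names, for each type, the first 4 members specific in both tissues, the strongest specific in 1 tissue alone (by log2 ratio after adding 10 CPM), and the 2 highest and 2 lowest tissue ratios on that scale with at least 10 CPM in 1 tissue. It also names up to 4 members of each functional list with the most UMIs, paralogs specific to different types, and carriers of the enterocyte, macrophage and erythroid lists. Members past 2-fold in all 3 fibroblast types or in opposite directions, partners named beside them, and single members that make up a small count were chosen after their values were seen. Some items the rule names are not reported here. Positions are from the GENCODE annotation of mm10 and promoter windows from RefSeq (GRCm38.p6). No doublet caller was run; leaving out the 5% of cells with the most UMIs was an alternative. Alternatives also changed the totals, the weight of cells, the colon cells used, the thresholds and the types compared.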

Additional observations from a re-analysis of the deposited data

Results flagged for a closer look

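For 8 of 215 members (3.72%, beside 4.47% of all genes) the colon was past 2-fold above the small intestine in 1 cell type and past 2-fold below it in another. With 1 library per tissue the difference between the types was not tested. Each pair below gives the log2 ratio of colon to small intestine.

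Slc6a6 was 3.20 in CD81- FBs and -1.58 in LECs, and Slc8a1 was 2.02 in LECs and -2.27 in BECs; both rest on at least 10 UMIs in each tissue. Slc1a5, the glutamine carrier ASCT2, was 1.26 in LECs (10 colon UMIs) and -1.04 in SMCs (23 colon UMIs). Slc22a3 was 2.34 in LECs and -3.15 in trophocytes, the latter from 1 colon UMI against 21. Slc4a8, a bicarbonate carrier, was 5.79 in CD81- FBs, from 68 colon UMIs against 1, and -3.67 in LECs, from 1 against 134. Slc7a2, a carrier of cationic amino acids, was 1.01 in CD81- FBs and -3.36 in SEMFs, the latter from 2 against 18. Slc7a6, a carrier of basic and neutral amino acids, was 1.40 in LECs and -1.06 in trophocytes. Slc35e4 was 1.85 in SEMFs and -1.06 in BECs, the latter with 3 counts in place of 0 UMIs in colon BECs. The interval of that BEC value reached -0.71, so counting error allows a BEC difference under 2-fold.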

How the results depend on the processing

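No paired analysis was possible because each tissue has 1 library. The 111 named values were recomputed 731 times under the alternatives: 654 kept their direction and call, 60 lost the call, 3 gained one, 9 without a call moved and 5 reversed. The 11 members specific in both tissues became 6 with a minimum of 50 CPM, 6 with a 3-fold limit and 6 with the colon cells that had Y-linked UMIs but lacked Xist. With those cells the members past 2-fold were 15 in LECs, 6 in BECs and 21 in SMCs; this set holds 53, 11 and 45 cells of these types. With the colon cells that had Xist and lacked Y-linked UMIs, a set added after seeing the data, SMCs gave 19. With 100 UMIs required in place of 20, BECs gave 8 and SMCs 13. The shares of all genes under these alternatives are not given here, so these counts cannot be read against other genes. The reversed value with the Y-linked set was that of Slc24a5 in SEMFs of the colon (log2 over the next type -0.016). Also counted as reversed with that set were Slc22a3 in trophocytes (at most 0.037), Slc4a8 in LECs (at most 0.014) and Slc35e4 in BECs (at most 1.18). With the Xist set it was Slc35e4 in BECs (at most 0.35). These bounds use 3 counts in place of 0 UMIs. Over all colon cells these members had 0 or 1 UMI in those types, so no change of direction was measured for them. The Y-linked and Xist sets have fewer cells, and no other cause was tested. Colon BECs, with 269665 UMIs, and colon SMCs, with 772279, have the least depth.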

Other observations

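A further 33 Slc symbols were listed for the small intestine alone and 0 for the colon alone, so no tissue ratio was formed for them. The best detected were Slc4a10, a sodium bicarbonate carrier, with 189 UMIs, highest in SMCs at 17.5 CPM, and Slc39a12, a zinc carrier, with 126 UMIs, of which 115 were in LECs at 10.3 CPM. Slc38a5, a glutamine carrier, had 104 UMIs and was highest in trophocytes at 4.79 CPM, and Slc24a4, a further exchanger of the SLC24 family, had 84 UMIs, 71 of them in LECs at 6.33 CPM.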
